A study of Mus musculus with 18 samples.

Results

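The LPS response of TLR4-K810R macrophages was set against the LPS response of TLR4-K730R macrophages, as the difference (K810R with LPS minus K810R mock) minus (K730R with LPS minus K730R mock). The comparison took the 12 RNA-seq libraries of the mutants out of 18 in the series, 3 in each of 4 groups. The TLR4-WT libraries were left out of the test, so both mutants were measured against each other with no control group in common. All cells were peritoneal macrophages of mice in which 1 lysine of TLR4, at residue 730 or at residue 810, is replaced by arginine, and they received either mock treatment or LPS at 100 ng/ml over 6 h. According to the study's methods the macrophages were elicited with thioglycolate, which draws monocytes and other leukocytes into the peritoneum. The sources do not say that the 3 libraries of a group came from separate mice, so the p-values measure the spread between these libraries, which may be technical.

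TLR4 is the receptor of macrophages for lipopolysaccharide (LPS), a component of the outer membrane of Gram-negative bacteria. Once LPS is bound with the help of CD14 and MD-2, the intracellular TIR domain of TLR4 recruits the adaptors Mal and MyD88, and the kinases that follow activate NF-κB and the transcription of cytokines and chemokines. A further branch from the same receptor leads to interferon-stimulated genes, and activated macrophages also reset their iron and sterol metabolism.

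Both mutated residues lie in the last of the 3 exons of Tlr4, on the plus strand of chromosome 4 (GRCm38, GENCODE transcripts). The reference coding sequence around them is shown because these codons are the only designed difference between the mutants, with the lysine codon in capitals.
Tlr4 codon 730, AAG, chr4:66841147-66841173: cacaagagccggAAGgttattgtggta
Tlr4 codon 810, AAA, chr4:66841387-66841413: tggagaagacttAAAaatgccctattg
In the mice the lysine codon is replaced by an arginine codon, CGC in K730R and CGA in K810R.

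Tlr4 itself was read at similar levels in both mutants. The authors deposited FPKM values (fragment counts scaled to transcript length and library size) of transcript events, such as first and last exons, and a gene was read from whichever was higher, the FPKM summed over its first exons or over its last exons. Tlr4 stood at 12.1, 9.31 and 9.85 FPKM in K730R mock, at 5.1, 4.38 and 4.57 in K730R with LPS, at 11.9, 11.7 and 13.9 in K810R mock, and at 4.18, 4.74 and 5.28 in K810R with LPS. The mock and LPS libraries did not overlap in either mutant, while the mutants overlapped under both treatments. It fell after LPS by 0.999 on the log2 scale in K730R and by 1.23 in K810R (adjusted p = 7.53e-05 and 1.84e-05, limma with Benjamini-Hochberg adjustment), and the response difference was -0.23 (95% interval -0.64 to 0.17). A level per gene cannot show the mutation, which changes 1 codon, so it is no check of the genotype labels.

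Differences were tested with limma on log2(FPKM + 1). The test took 9517 genes, those reaching 1 FPKM in 3 or more of the 12 libraries, and a gene was called at an adjusted p below 0.01, the threshold the study's methods give. All fold changes are given on this scale, where changes of low genes come out too small. Without read counts in the files the sequencing depth is unknown, and counting intervals are left out. A gene listed at 0 may be a failed estimate: 37 of the genes tested were at 0 in a library beside a replicate above 5 FPKM. Libraries of a group correlated at r = 0.960 to 0.976 across genes. Replicate 3 of K730R with LPS stood apart from its replicates, with lower Il6, Cxcl3 and Il1b and higher Nos2 and Cxcl10 and the lowest library weight of the 12 (0.415). Replicates 2 and 3 of K810R with LPS held almost none of the intestinal epithelial mRNA found in the other 10 mutant libraries, and replicate 3 of K810R mock held the most.

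The library labelled replicate 3 of K730R with LPS resembled replicates 1 and 2 of TLR4-WT with LPS more than its own replicates. Across the 9517 genes it correlated at r = 0.975 and 0.978 with WT replicates 1 and 2 and at 0.966 with WT replicate 3. Its correlations with K730R replicates 1 and 2 were 0.971 and 0.968. Correlations and 2-fold counts in this paragraph took all first-exon and last-exon rows, also those that did not overlap their gene. On the values tested, its correlations with K730R replicates 1 and 2 were 0.9668 and 0.9635, and WT was not compared. The library labelled replicate 3 of WT with LPS stood the other way, at 0.969 and 0.965 with the other WT libraries and at 0.973 with each of K730R replicates 1 and 2, beside 0.968 to 0.972 with the K810R libraries with LPS. Of 316 genes that differed over 2-fold between replicates 1 and 2 of WT and of K730R with LPS, K730R replicate 3 lay nearer WT in 217 (68.7%) and WT replicate 3 nearer K730R in 207 (65.5%). Cxcl3 was at 553, 519 and 1676 FPKM in WT with LPS and at 2058, 2457 and 523 in K730R. Nos2 was at 406, 423 and 199 against 144, 123 and 441, and Abcg1, a sterol exporter, at 20.7, 20.3 and 10.5 against 9.99, 10.3 and 22.8. These levels have the pattern that an exchange of the 2 libraries would give. Marker lists were split. The summed markers of resident peritoneal macrophages had the same pattern, at 166, 178 and 118 FPKM in WT with LPS and at 109, 110 and 171 in K730R, and so had those of recruited monocytes without Hp, at 726, 693 and 1195 against 1024, 985 and 685. Intestinal and mesothelial markers did not have it. The summed intestinal markers were at 66.5 FPKM in K730R replicate 3, beside 74.7 and 69.3 in its replicates, and at 20.5 in WT replicate 3, beside 0.0928 and 17.1. The summed mesothelial and fibroblast markers were at 48.3 FPKM in K730R replicate 3, beside 48.9 and 48.2, and at 145 in WT replicate 3, beside 108 and 43.7. Whether the libraries were exchanged was not tested, and the labels were kept. Without the K730R library the response difference called 1 gene, Hp (1.76, adjusted p = 0.004), LPS raised 811 and lowered 2056 genes in K730R, and 0 genes were called between the mutants with LPS. Medians of gene lists that moved by over 1.5 times without it are given both ways, or with their range over left-out libraries.

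The LPS responses of the mutants were broadly alike, and only 1 gene, haptoglobin (Hp), differed between them at the threshold. LPS raised 848 genes and lowered 1856 in K810R, 2704 or 28.4% of those tested, and raised 875 and lowered 2480 in K730R, 3355 or 35.3%. Of 2335 genes called in both mutants, 725 rose in both, 1610 fell in both and 0 moved in opposite directions. Across the 9517 genes the responses correlated at r = 0.90, as a description, since genes are not independent replicates and no library is shared between the 2 responses. In addition, 369 genes were called in K810R alone, of which 354 had the same sign in K730R, and 1020 were called in K730R alone, of which 987 had the same sign in K810R. None of these 1389 genes was called in the test of the difference itself, so they are not shown to differ between the mutants. Rescaling the libraries by median-of-ratios size factors changed the direction split to 1172 higher and 1057 lower in K810R and 1448 higher and 1259 lower in K730R.

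**Figure D1:**
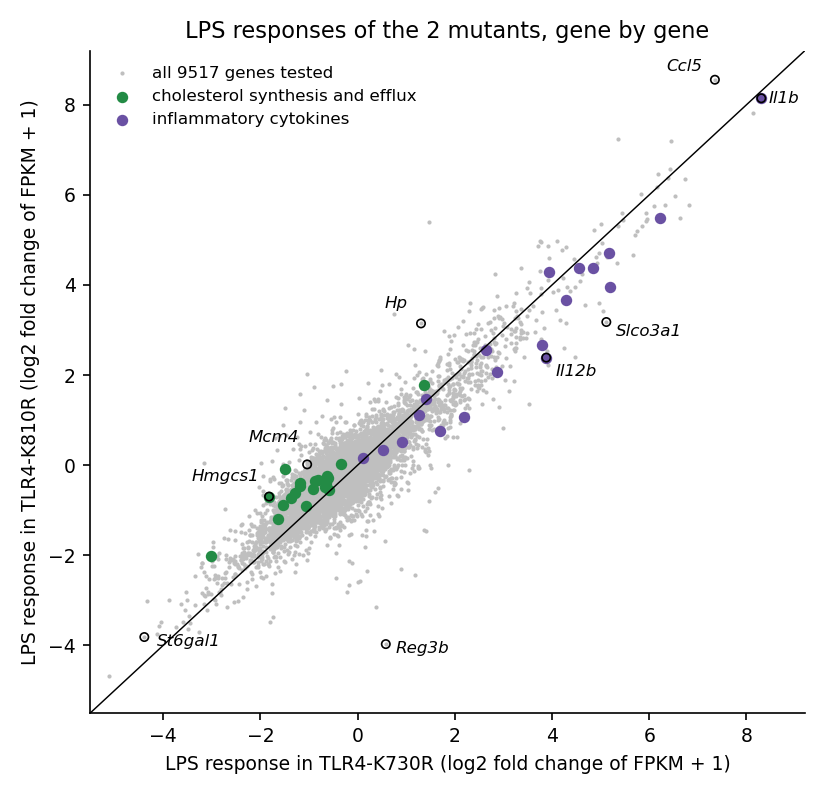
LPS response of each of the 9517 genes tested in TLR4-K730R (x axis) and TLR4-K810R (y axis), as log2 fold changes of FPKM + 1 from 3 LPS and 3 mock libraries each, with the line of equal response. Most genes lie along the line (r = 0.90), the cholesterol genes (green) lie above it, most inflammatory cytokines (purple) lie below it, and Hp stands at 1.30 and 3.15.

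The response difference was called for 1 of 9517 genes (0.0105%), and the second smallest adjusted p was 0.131 (Tgfbi). At an unadjusted p below 0.05 stood 852 genes (8.95%), 624 with the higher response in K810R (6.56%) and 228 with the lower (2.4%). This split moved to 351 higher and 394 lower after median-of-ratios scaling, which shifted the median difference of all genes from 0.09 to -0.02, so signs of single genes near 0 depend on the scaling. The difference was larger than 1 in size, or 2-fold, for 326 genes (3.43%), and its median standard error was 0.27. In simulations of this comparison with all 9517 genes, differences were planted only in genes above a minimum mean level. Among those genes the test recovered 77.7% of 4-fold differences and 25.6% of 2-fold differences, so that most 2-fold differences would go uncalled. Recovery at lower levels was not simulated. For 5822 genes (61.2%) the 95% interval of the difference lay within 2-fold in either direction, and this held for 467 of the 725 genes that rose in both mutants (64.4%).

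Hp encodes haptoglobin, an acute phase protein that binds free haemoglobin, and lies on chr8:109575128-109579172 (GRCm38, minus strand). Its values were 428, 453 and 408 FPKM in K730R mock and 1082, 1174 and 941 in K730R with LPS. In K810R they were 197, 164 and 165 FPKM in mock and 1632, 1567 and 1461 with LPS. The K810R libraries were thus the lowest of all without LPS and the highest of all with LPS, and no groups overlapped. The group means were 430 ± 22.5 and 1066 ± 117 FPKM in K730R and 175 ± 18.8 and 1553 ± 86.1 in K810R (SD, n = 3). Hp rose by 3.15 on the log2 scale in K810R and by 1.30 in K730R, a difference of 1.84 (SE 0.16, 95% interval 1.48 to 2.20, adjusted p = 0.00187, limma). The difference had parts on both sides: mock K810R was lower by a log2 value of -1.30 (adjusted p = 0.00146), and LPS-treated K810R stood 0.55 higher (adjusted p = 0.0425), which did not pass the threshold. The call was lost when replicate 2 or 3 of K810R mock or replicate 2 of K810R with LPS was left out (adjusted p = 0.0122, 0.0106 and 0.0135), with the difference between 1.70 and 1.93 under all alternatives and adjusted p from 0.000421 to 0.229.

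**Figure D2:**
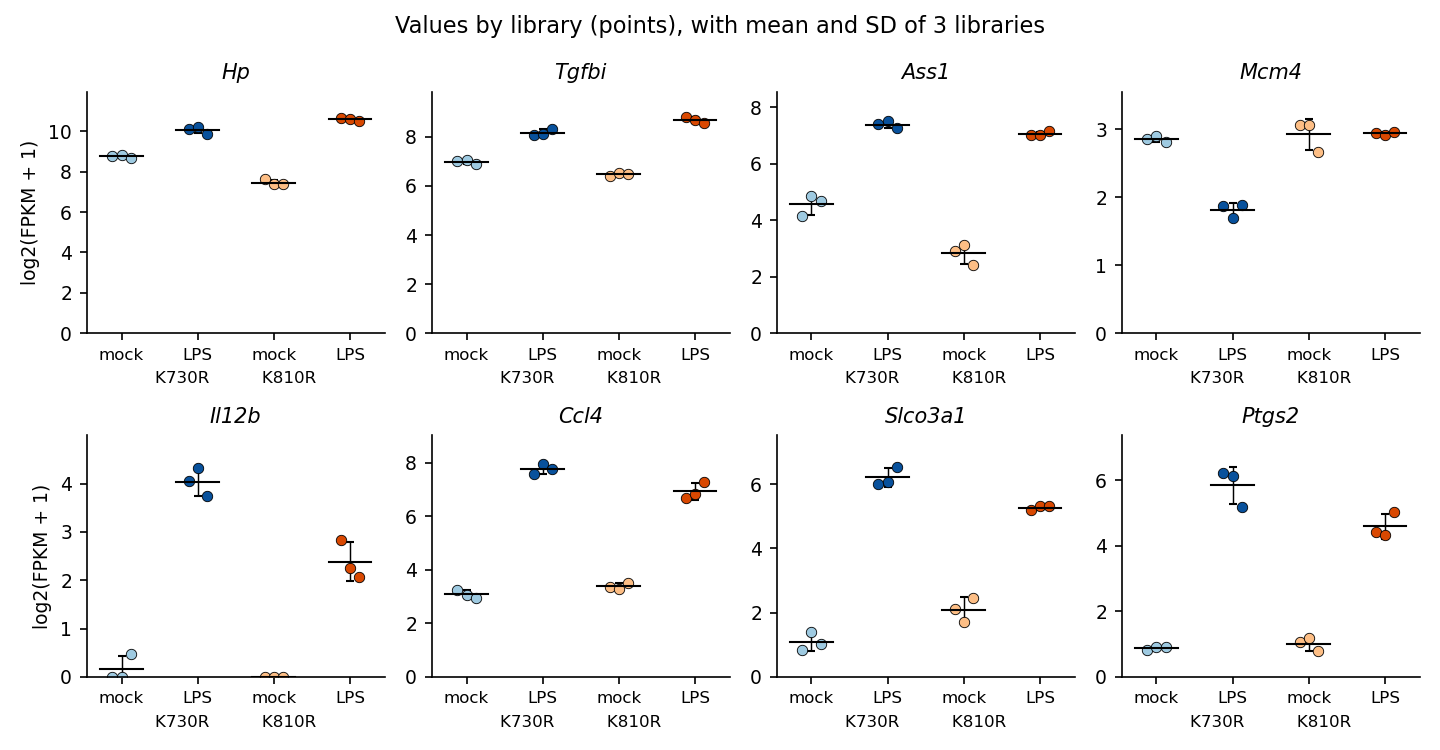
Values of 8 genes in each of the 12 libraries, as log2(FPKM + 1) (y axis) by mutant and treatment (x axis), with the mean and SD of 3 libraries per group. For Hp the K810R points lie below K730R in mock (175 against 430 FPKM) and above it with LPS (1553 against 1066 FPKM), while Il12b, Ccl4, Slco3a1 and Ptgs2 were lower in K810R than in K730R with LPS.

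The 9 genes that followed Hp by smallest p with the higher response in K810R did not pass the threshold (adjusted p 0.131 to 0.214). Tgfbi, an extracellular matrix protein induced by TGF-β, measured 129, 133 and 116 FPKM in K730R mock, 268, 278 and 318 with LPS, 82.8, 92.2 and 89.0 in K810R mock, and 447, 412 and 377 with LPS. As with Hp, the K810R libraries lay below all K730R libraries in mock and above them with LPS. Its response difference was 1.03 (95% interval 0.70 to 1.36). Acp5, tartrate-resistant acid phosphatase, had the same order of groups, at 150, 144 and 151 FPKM in K810R mock against 197, 206 and 206 in K730R, and at 569, 644 and 570 with LPS against 457, 527 and 441, with a difference of 0.78 (0.47 to 1.08). Ccl5 encodes a chemokine for T cells and monocytes and was among the 5 genes with the largest rise in both mutants. It measured 64.1, 66.2 and 49.9 FPKM in K730R mock against 22.1, 18.5 and 19.2 in K810R mock, and 9723, 10597 and 9414 against 9915, 6498 and 7540 with LPS. Its levels with LPS overlapped, and the response difference of 1.21 (0.70 to 1.71) came with a mock level that was lower in K810R by a log2 value of -1.54 (adjusted p = 0.00353). Only last-exon events of Ccl5 are listed.

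Of the others, Hmgcs1 is described with the cholesterol genes, and Mcm4, Tmem131l, Mto1, Ikzf1 and Adam17 fell after LPS in K730R, while in K810R their change did not pass the threshold. Mcm4, a subunit of the replicative DNA helicase, stood at 6.21, 6.46 and 6.03 FPKM in K730R mock and at 2.65, 2.24 and 2.68 with LPS, whereas K810R held 7.31, 7.31 and 5.33 in mock and 6.72, 6.57 and 6.74 with LPS. The 3 K730R libraries with LPS were below all the others. The response difference was 1.06 (95% interval 0.66 to 1.45), and the level with LPS was higher in K810R by 1.13 (adjusted p = 0.0084, limma). That call was kept in 1 of the 12 fits that left out 1 library (adjusted p up to 0.0338 in the others). It was lost with median-of-ratios scaling (0.014), no filter on low values (0.0131) and first-exon sums alone (0.0105). Mcm4 was one of 21 genes (0.221%) called between the mutants with LPS, 17 higher (0.179%) and 4 lower in K810R. This count was 54 without replicate 3 of K810R mock, between 0 and 7 without any other single library, and 6 after median-of-ratios scaling, of which 2 were higher and 4 lower, so neither the count nor the excess of higher calls was stable. Tmem131l, Mto1, which modifies mitochondrial tRNA, and Ikzf1, a zinc finger factor of leukocytes, had differences of 1.54, 1.05 and 0.99. Adam17, the protease that sheds TNF from the cell surface, had one of 1.09, with 72.6, 68.0 and 73.2 FPKM in K810R with LPS against 47.2, 58.3 and 46.5 in mock, and 42.7, 66.5 and 58.4 in K730R with LPS against 82.3, 86.6 and 82.8 in mock.

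The 10 genes of smallest p with the lower response in K810R also missed the threshold (adjusted p 0.156 to 0.286). Slco3a1, a transporter of organic anions, measured 0.780, 1.66 and 1.04 FPKM in K730R mock and 63.6, 65.9 and 92.4 with LPS, beside 3.33, 2.24 and 4.52 in K810R mock and 35.3, 38.6 and 38.9 with LPS. The groups did not overlap, with K810R higher in mock and lower with LPS, and the difference was -1.94 (95% interval -2.61 to -1.27). Ccl4, a chemokine induced by NF-κB, was close in mock (8.45, 7.29 and 6.68 FPKM in K730R, 9.19, 8.67 and 10.3 in K810R) and stood at 188, 243 and 217 in K730R and 101, 112 and 153 in K810R with LPS. Its difference was -1.13 (-1.63 to -0.63). Med7, a subunit of the Mediator complex, measured 4.12, 3.68 and 3.18 FPKM in K730R mock and 5.43, 4.63 and 6.22 with LPS, and 7.28, 5.64 and 5.6 in K810R mock and 3.55, 3.44 and 4.07 with LPS, with a difference of -1.07 (-1.52 to -0.62). Pura was listed at 0 in all 3 K810R libraries with LPS and at 0 in 1 K730R mock library, and its difference of -3.19 (-4.63 to -1.75) rests on values below 7 FPKM.

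A further 4 of these 10 are genes of the gut: Guca2b, a ligand of the intestinal guanylate cyclase, Reg3b, an antibacterial lectin, Apoa4, an apolipoprotein of enterocytes, and Clca4b. Reg3b measured 11.7, 22.6 and 25 FPKM in K730R mock, 30.9, 25.8 and 29.5 with LPS, 32.4, 29.5 and 45.7 in K810R mock, and 9.26, 0.194 and 0 with LPS. Its difference was -4.55 (95% interval -6.70 to -2.40, adjusted p = 0.269) and passed the threshold when replicate 1 of K810R with LPS was left out (-5.63, adjusted p = 0.00039). In the list of 23 markers of intestinal epithelium, 12 passed the filter on low values, and all 12 had a negative difference with a median of -1.27, beside 0.09 for all genes. Over all alternatives this median ran from -3.18 with a pseudocount of 0.1 to -0.43 with one of 5. The summed level of the list was 58.0 to 88.6 FPKM in K730R mock, 66.5 to 74.7 in K730R with LPS and 70.1 to 162 in K810R mock, but 28, 0.442 and 0.159 in K810R with LPS. Fabp1, a fatty acid-binding protein of enterocytes, was listed at 0 in replicates 2 and 3 of that group and at 1.69 FPKM in replicate 1. Epithelial mRNA therefore moved with the comparison through libraries of 1 group, and its part in the other differences was not tested.

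**Figure D3:**
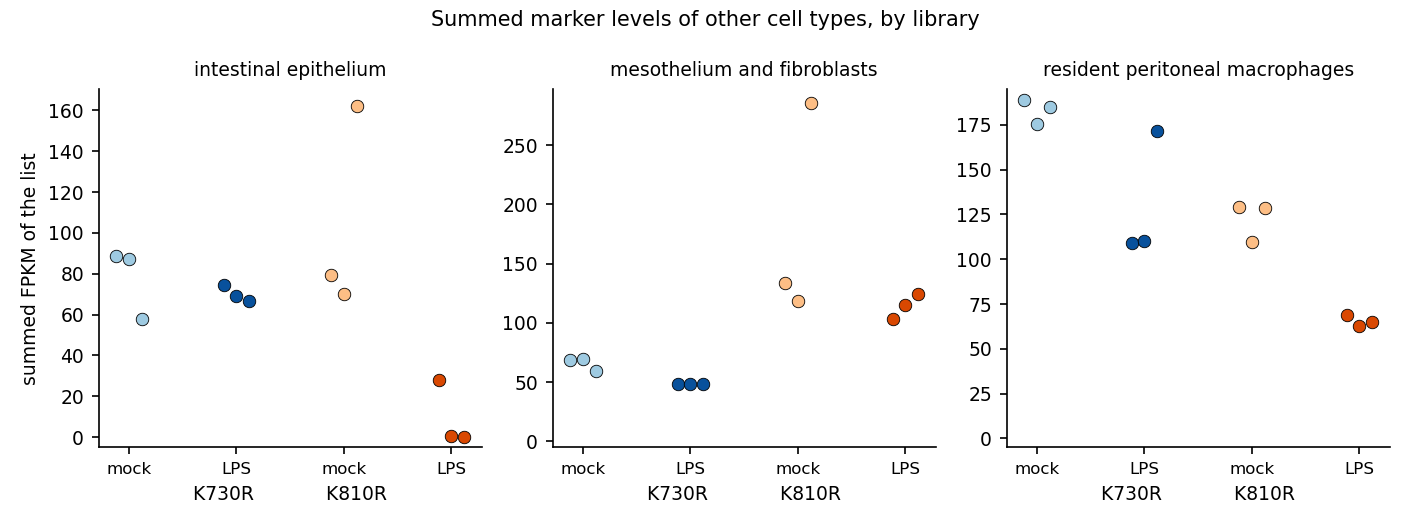
Summed FPKM (y axis) of 3 marker lists in each of the 12 libraries, by mutant and treatment (x axis). The intestinal list is at 0.442 and 0.159 in 2 K810R libraries with LPS, the mesothelial list is higher in K810R than in K730R under both treatments, and the resident macrophage list is lowest in K810R with LPS.

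Cholesterol synthesis and efflux was the only one of the 16 gene lists compared whose tested members all had the same sign of difference. Macrophages make cholesterol through the enzymes of the mevalonate pathway, whose genes are driven by SREBP-2 when sterols are low. Of 21 genes on the list, 20 were tested and all 20 had a positive difference, beside 60.7% of all genes, with a median of 0.47 beside 0.09. At an unadjusted p below 0.05 were 12 of the 20, beside 6.56% of all genes in this direction, and 0 were called (smallest adjusted p = 0.205). LPS lowered 15 of the 20 in K730R, beside 26.1% of all genes, and 7 in K810R, beside 19.5%, and raised Abca1, the cholesterol exporter, in both. When single libraries were left out, all 20 were positive in 4 of the 12 fits, among them that without replicate 3 of K730R with LPS (median 0.46), and 19 of 20 in the other 8. With median-of-ratios scaling 19 of 20 were positive with a median of 0.37, and over all alternatives the median ran from 0.36 to 0.56.

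Hmgcs1, which makes HMG-CoA for the pathway, led the list after Stard4. Its values were 33.4, 40.8 and 29.0 FPKM in K730R mock and 9.72, 9.06 and 8.03 with LPS, and 35.5, 31.2 and 31.5 in K810R mock and 18.4, 22.5 and 18.6 with LPS. The mutants overlapped without LPS and were fully separate with it. Hmgcs1 fell by 1.82 in K730R and by 0.70 in K810R (adjusted p = 1.11e-06 and 0.00192), a difference of 1.13 (95% interval 0.69 to 1.56). Sqle, squalene epoxidase, measured 8.92, 7.58 and 5.98 FPKM in K730R with LPS and 15, 16 and 15.8 in K810R with LPS, against 20.1 to 21.4 and 24.8 to 28.2 in mock. Cyp51, the lanosterol demethylase, measured 7.02, 5.91 and 5.13 against 13.0, 13.4 and 11.3 with LPS, and 14.1 to 15.4 against 15.6 to 18.9 in mock. For these 3 enzymes the level with LPS was higher in K810R, by 1.07, 0.98 and 0.96 (adjusted p = 0.0084 each). These 3 calls were lost in 11 of the 12 fits that left out 1 library, all but that without replicate 3 of K810R mock, with adjusted p up to 0.0338, 0.0375 and 0.0394. All 3 were also lost with no filter on low values, with first-exon sums alone and with median-of-ratios scaling, where the lowest of the differences was 0.77. Insig1, which retains the SREBP complex in the endoplasmic reticulum, measured 18.2, 19.9 and 15 against 30.2, 31.0 and 27.7 FPKM with LPS, with a difference of 0.65.

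**Figure D4:**
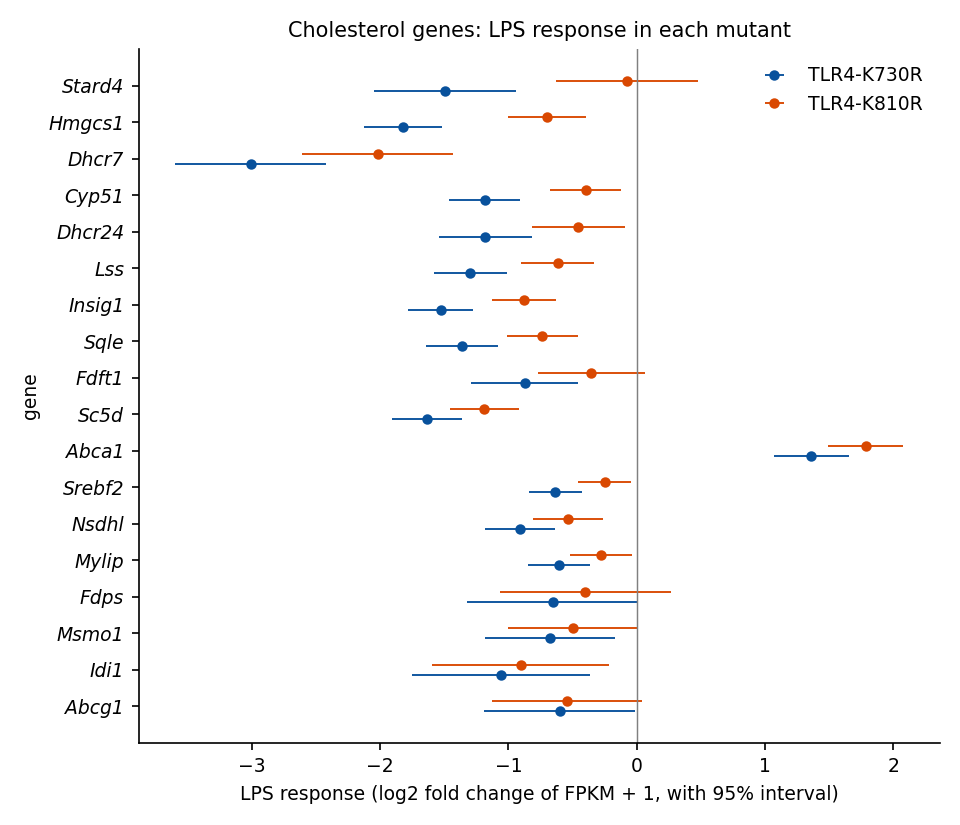
LPS response of 18 of the 20 cholesterol genes tested (rows) in TLR4-K730R and TLR4-K810R, as log2 fold changes of FPKM + 1 (x axis) with 95% intervals from limma. In each row the K810R point lies to the right of the K730R point, from a difference of 0.06 for Abcg1 to 1.42 for Stard4.

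The promoter of Hmgcs1 is printed because it was the 1 promoter, of the 13 list members in the RefSeq table (GRCm38.p6), that held the sterol regulatory element TCACNCCAC in the 250 bases before the start. The element was searched on both strands and is in capitals, 137 bases before the start. It occurs in 346 of all 32851 promoters (1.05%), a share per promoter and not per gene.
Hmgcs1, chr13:119690101-119690350, plus strand: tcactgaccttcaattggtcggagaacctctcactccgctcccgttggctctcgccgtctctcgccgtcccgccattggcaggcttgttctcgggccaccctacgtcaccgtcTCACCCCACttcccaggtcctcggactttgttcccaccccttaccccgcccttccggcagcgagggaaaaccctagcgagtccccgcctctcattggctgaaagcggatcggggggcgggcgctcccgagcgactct

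Inflammatory cytokines lay on the other side. Of 21 cytokine genes, 19 were tested, of which 3 had a positive and 16 a negative difference, with a median of -0.46 beside 0.09 for all genes. An unadjusted p below 0.05 in the negative direction was found for 5, beside 2.4% of all genes, and 0 were called. LPS raised 17 of the 19 in K730R, beside 9.19% of all genes, and 14 in K810R, beside 8.91%. Without replicate 3 of K730R with LPS, 15 of 19 were negative with a median of -0.59, and over all alternatives the median ran from -0.71 to -0.21. Il12b, the p40 chain shared by IL-12 and IL-23, was at 15.6, 18.9 and 12.4 FPKM in K730R with LPS and at 6.17, 3.74 and 3.21 in K810R with LPS. Of the 6 mock libraries, 5 listed it at 0. It rose by 3.88 in K730R and by 2.39 in K810R, a difference of -1.49 (95% interval -2.19 to -0.80, adjusted p = 0.25), and its level with LPS was lower in K810R (-1.65, adjusted p = 0.0084). That call was kept in 2 of the 12 fits that left out 1 library (adjusted p up to 0.043 in the others) and was lost with no filter on low values (0.0165), a pseudocount of 0.1 (0.102) and first-exon sums alone (0.0105). Il6 was at 43.9, 74.9 and 16.4 FPKM in K730R with LPS and at 15.4, 11.5 and 17.3 in K810R with LPS, so replicate 3 of K730R lay inside the K810R range. Its difference was -1.25 (-2.49 to -0.00, adjusted p = 0.557), and -1.83 without that replicate (adjusted p = 0.184). Over left-out libraries it ran from -2.03 to -0.57.

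Other cytokines of the list gave differences of the same or of the other sign without passing the threshold. Il27 and Il10 had differences of -1.12 each (adjusted p = 0.483 and 0.488), and of -0.89 and -0.78 without that replicate. Il10, an inhibitory cytokine, was low throughout, at 2.58, 2.61 and 6.28 FPKM in K730R and 1.93, 0.969 and 1.59 in K810R with LPS. Tnf measured 18.9, 20.2 and 17.7 FPKM in K730R mock, 323, 330 and 259 with LPS, 11.8, 10.3 and 14 in K810R mock, and 264, 217 and 276 with LPS. Its levels with LPS overlapped, and the difference was 0.35 (95% interval -0.09 to 0.80). Il1b, among the largest rises in both mutants, measured 4.83, 6.13 and 6.99 FPKM in K730R mock and 2869, 2559 and 1430 with LPS, against 2.88, 3.52 and 3.99 in K810R mock and 1182, 985 and 1703 with LPS. Its difference was -0.16 (-0.98 to 0.66), and -0.47 without replicate 3 of K730R with LPS.

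The promoter of Il6 is printed as a well-known NF-κB target on the list. Capitals mark matches to the κB motif GGGANTTTC and to the C/EBP motif TTGCNNAA, both searched on both strands and without overlap here.
Il6, chr5:30012864-30013113, plus strand: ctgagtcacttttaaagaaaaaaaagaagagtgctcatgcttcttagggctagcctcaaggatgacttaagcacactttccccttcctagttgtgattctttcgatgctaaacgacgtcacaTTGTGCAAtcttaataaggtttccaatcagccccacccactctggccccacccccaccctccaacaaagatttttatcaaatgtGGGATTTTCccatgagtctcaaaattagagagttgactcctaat
A κB match within the 250 bases before the start was found for 2 of the 14 cytokine genes in the table (Csf1 and Il6). Among its 16 chemokine genes it was found for 4 (Cxcl1, Cxcl2, Cxcl3 and Cxcl9), and among all promoters for 0.941%. A gene counted as matching if any of its promoters did. The share over all is per promoter, of 32851 promoters for 27025 genes. C/EBP matches occur in 9.56% of all promoters. A match is a stretch of letters and not evidence of binding.

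Chemokines and M1 markers gave mixed signs. Of 24 chemokine genes, 22 were tested, 7 positive and 15 negative, with a median of -0.14, and this became 11 and 11 with a median of -0.04 without replicate 3 of K810R mock and 10 and 12 without replicate 3 of K730R with LPS. Cxcl10, an interferon-inducible chemokine, measured 266, 233 and 913 FPKM in K730R with LPS and 192, 192 and 208 in K810R with LPS, with a difference of -1.14 (95% interval -2.46 to 0.19) that was -0.51 without replicate 3 of K730R. Cxcl3, a neutrophil chemoattractant, moved the other way with that library, at 2058, 2457 and 523 FPKM in K730R against 953, 811 and 1224 in K810R, with a difference of 0.75 that was 0.05 without it. Of 13 M1 markers, 11 were tested, 3 positive and 8 negative, with a median of -0.38 that was -0.13 without that library. Ptgs2, cyclooxygenase-2, measured 72.9, 69.5 and 35.5 FPKM in K730R and 20.3, 19.2 and 32.0 in K810R with LPS, without overlap, and had a difference of -1.36 (-2.18 to -0.54, adjusted p = 0.355). Nos2, inducible nitric oxide synthase, measured 144, 123 and 441 FPKM in K730R and 74.0, 78.0 and 58.7 in K810R with LPS, again without overlap. Its difference was -1.04 (-2.38 to 0.29), and -0.47 without replicate 3 of K730R, and mock values of 0 to 1.15 FPKM make its fold change depend on the pseudocount.

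Ass1 and Marco, both on the M1 list, were lower in K810R before LPS. Ass1, which regenerates arginine from citrulline, measured 16.7, 28.1 and 24.9 FPKM in K730R mock against 6.50, 7.78 and 4.39 in K810R mock, and 168, 180 and 152 against 130, 129 and 141 with LPS. Marco, a scavenger receptor for bacteria, measured 105, 109 and 111 FPKM in K730R mock against 39.2, 29.6 and 42.3 in K810R mock, and 124, 153 and 165 against 89.9, 86.8 and 81.0 with LPS. Neither gene overlapped between the mutants under either treatment. Without LPS, 4 of the 9517 genes (0.042%) were called between the mutants, Hp, Marco, Ccl5 and Ass1, all lower in K810R, by log2 values of -1.30, -1.54, -1.54 and -1.74. The single direction did not hold at an adjusted p below 0.05, with 23 higher and 15 lower, or with no filter on low values, with 4 higher and 8 lower. Their response differences were 1.84, 0.77, 1.21 and 1.42. These share the mock libraries with the mock comparison, so the values are given side by side and not as separate support.

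Interferon-inducible GTPases, which attack the vacuoles of intracellular microbes, had the lowest median of the 16 lists, although 7 of 15 were tested. All 7 rose in both mutants, beside 9.19% of all genes in K730R and 8.91% in K810R, and 1 had a positive and 6 a negative difference, with a median of -0.85 and -0.59 without replicate 3 of K730R with LPS. Gbp2 measured 8.79, 8.19 and 6.48 FPKM in K730R mock and 398, 362 and 609 with LPS, against 16.4, 12.1 and 10.7 in K810R mock and 359, 362 and 330 with LPS. Its mock values were higher in K810R without overlap, those with LPS overlapped, and the difference was -1.002 (95% interval -1.63 to -0.38, adjusted p = 0.377). Gbp4 measured 14.9, 18.6 and 31.7 FPKM in K730R and 7.49, 10.4 and 8.49 in K810R with LPS, with a difference of -1.65 (-2.46 to -0.83). Irgm1, at 36.4, 28.9 and 159 in K730R and 22.1, 30.2 and 27.2 in K810R with LPS, had a difference of -1.70 that was -0.94 without the third K730R library. The larger list of antiviral interferon-stimulated genes did not follow them: of 40 tested, 38 rose in each mutant (9.19% and 8.91% of all genes), 17 had a positive and 23 a negative difference, beside 60.7% positive over all genes, and the median was -0.06. Without replicate 3 of K730R with LPS the signs turned to 25 positive and 15 negative, with a median of 0.19.

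Genes of iron handling and the acute phase had a median difference of 0.48, 9 of 12 positive, and Hp is one of them. Without replicate 3 of K730R with LPS the median was 0.23. The positive count became 8, as Saa3 turned from 1.80 to -2.18. With Saa3 left out, 8 of 11 were positive, with a median of 0.47, or 0.24 without that library. Tfrc, the transferrin receptor, fell in both mutants, from 73.7, 63.1 and 87.3 to 8.91, 7.67 and 4.99 FPKM in K730R and from 62.7, 65.7 and 71.4 to 12.1, 12.5 and 14.7 in K810R. The libraries with LPS did not overlap, and the difference was 0.97 (95% interval 0.40 to 1.53, adjusted p = 0.345). Ftl1, the ferritin light chain, fell in K730R, from 13061, 15617 and 13372 to 7600, 9134 and 6787 FPKM, while K810R measured 11388, 12194 and 10191 in mock and 11481, 9357 and 9702 with LPS. The difference was 0.70 (0.23 to 1.17, adjusted p = 0.415). Lcn2, the siderophore-binding lipocalin, rose by 6.56 in K810R and 6.43 in K730R. Saa3 cannot be compared, since it was listed at 1.63 FPKM in 1 K730R library with LPS beside replicates at 11074 and 9443, and at 13.4 in 1 K810R library beside 11137 and 9295.

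The receptor and its signalling genes showed small differences. Of 26 genes of the TLR4 complex and its pathway, 24 were tested, 15 positive and 9 negative, between -0.36 (Traf6) and 0.46 (Traf3), with a median of 0.06. Myd88, the adaptor, rose from 28.6, 28.5 and 26.0 to 84.7, 83.6 and 99.7 FPKM in K730R and from 26.9, 30.2 and 26.0 to 78.9, 78.3 and 78.7 in K810R. Tirap, which encodes Mal, had responses of 0.35 and 0.46 that did not pass the threshold. Of the NF-κB subunits and their inhibitors 16 were tested, 10 positive and 6 negative, beside 60.7% positive over all genes, with a median of 0.10. Of these 16, 11 rose in each mutant, beside 9.19% of all genes in K730R and 8.91% in K810R. The feedback inhibitors Tnfaip3 and Nfkbia rose by 2.32 and 2.67 in K810R and by 2.32 and 2.37 in K730R. Nfkbib had the widest difference, -2.18 (95% interval -4.07 to -0.29, adjusted p = 0.51), on erratic values of 7.68, 22.8 and 2.22 FPKM in K810R mock.

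The 5 largest rises and 5 largest falls shared by both mutants had no difference that was called, although Ccl5 and Cxcl3 had fitted differences of 1.21 and 0.75, larger in K810R. Besides Il1b, Ccl5 and Cxcl3, the largest mean rises belonged to U90926 (7.81 in K810R, 8.13 in K730R) and the antiviral GTPase gene Mx1 (6.35 and 6.73). The difference for Mx1 was -0.38, and -0.06 without replicate 3 of K730R with LPS. U90926 measured 291, 297 and 298 FPKM in K810R and 515, 434 and 434 in K730R with LPS. The largest mean falls belonged to Arhgap19 (-4.67 and -5.12), St6gal1 (-3.82 and -4.39), Sesn1 (-3.75 and -4.13), Daglb (-3.57 and -4.09) and Tpcn1 (-3.49 and -4.04). St6gal1, a sialyltransferase, was listed at 0 in all 3 K730R libraries with LPS and at 0.291, 0.661 and 0.730 FPKM in K810R, from 19.2 to 22.7 FPKM in mock, and Tpcn1, a lysosomal cation channel, stood at 0.495, 1.19 and 0.949 against 1.97, 1.85 and 1.86. All 5 falls were smaller in K810R, by 0.38 to 0.57, as the fitted values stand, and none of these differences was called (adjusted p 0.443 to 0.64). Among the 725 shared rises the median response was 1.57 in K810R and 1.68 in K730R, with 292 larger and 433 smaller in K810R. Among the 1610 shared falls it was -1.03 and -1.15, with 1124 smaller and 486 larger in K810R. By sign, a smaller fall is a positive difference, which 60.7% of all genes had. The median difference was 0.13 among the shared falls and 0.09 over all genes. Median-of-ratios scaling moved the latter to -0.02, and the split was not counted after it.

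**Figure D5:**
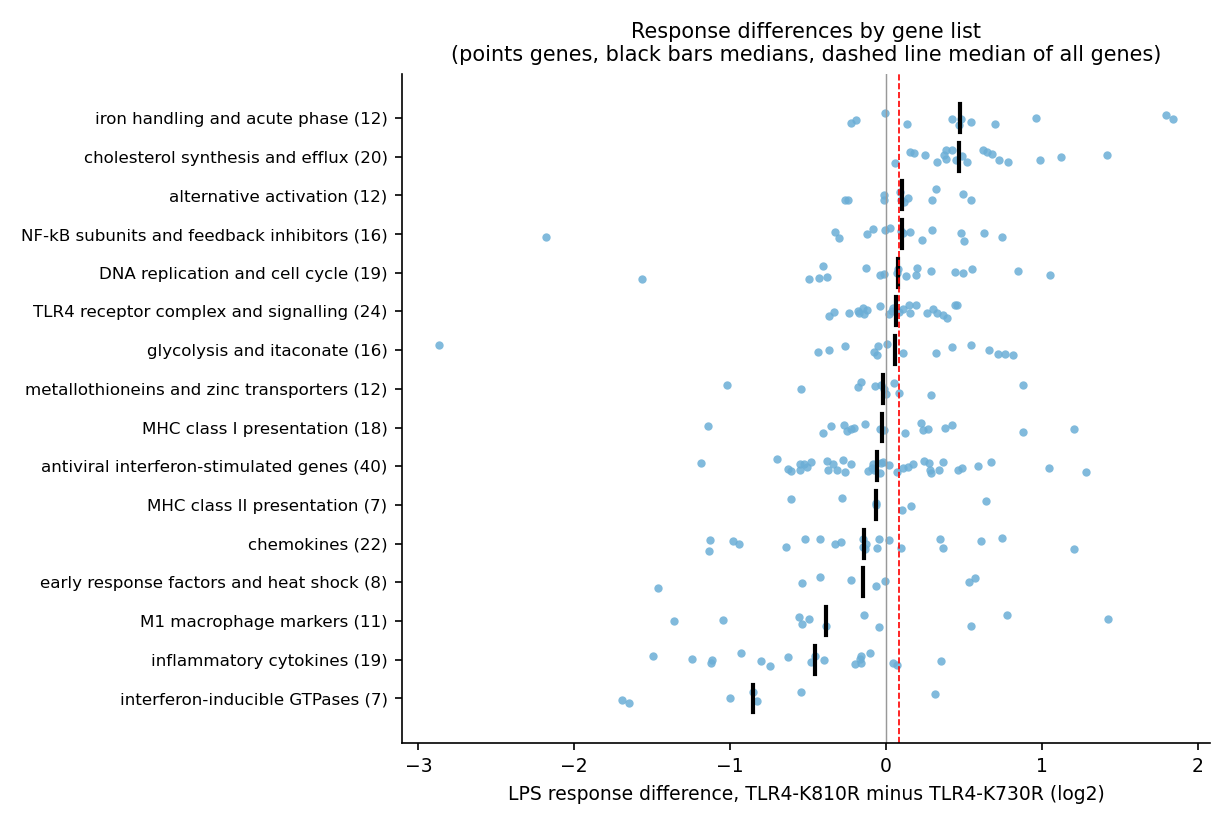
Response difference, TLR4-K810R minus TLR4-K730R, of every tested gene (points) of the 16 gene lists (rows, number tested in brackets) on the log2 scale (x axis), with list medians and the median of all genes (0.09). The medians run from -0.85 for the interferon-inducible GTPases to 0.48 for iron handling.

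Macrophage markers were present in every library: Lyz2, lysozyme, stood at 6328 to 13291 FPKM and Adgre1 (F4/80) at 148 to 271 FPKM in the 12 libraries. Of 12 macrophage markers tested, 6 had a positive and 6 a negative response difference. Their median of 0.06 ran from -0.06 to 0.19 over left-out libraries. Without replicate 3 of K730R with LPS, Mertk turned from -0.02 to 0.29 and Mpeg1 from -0.05 to 0.03. Of 8 resident peritoneal macrophage markers tested, 1 was positive and 7 negative, with a median of -0.51, or 3 and 5 with a median of -0.25 without replicate 3 of K730R with LPS. Of 7 mesothelial and fibroblast markers tested, 1 was positive and 6 negative, with a median of -0.24, which turned to 6 and 1 with a median of 0.20 without replicate 3 of K810R mock. Markers of other cells differed between groups. The summed level of the mesothelial and fibroblast markers, 9 of 10 with a value, was 59.8 to 69.4 FPKM in K730R mock and 48.2 to 48.9 with LPS, against 118 to 286 in K810R mock and 103 to 124 with LPS. Markers of resident peritoneal macrophages summed to 175 to 189 FPKM in K730R mock, 109 to 171 with LPS, 110 to 129 in K810R mock and 62.7 to 68.8 with LPS. Of 9 markers of recruited monocytes, a list that includes Hp, 6 were tested, 4 with a positive and 2 with a negative difference. Hp is the 1 of them called, and the others were Ly6c2 (0.95), Fn1 (0.81), S100a4 (0.66), the chemokine receptor gene Ccr2 (-0.72) and Plac8 (-1.10), with adjusted p of 0.476 to 0.593. The summed level of this list was 1520 to 1818 FPKM in K730R mock and 1626 to 2159 with LPS, against 1123 to 1669 in K810R mock and 2542 to 2611 with LPS. Without Hp the sum was 1111 to 1390 and 685 to 1024 FPKM in K730R, against 959 to 1504 and 979 to 1081 in K810R, so the rise of the sum in K810R is that of Hp. Scgb1a1, a secretory gene of airway epithelium, measured 1.25, 22 and 30.9 FPKM in K810R with LPS and at most 2.11 FPKM in the other 3 groups. In such bulk samples fewer cells of a type and less RNA per cell cannot be told apart, and the part of these cells in the differences above was not tested.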

How the data were processed

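RNA-seq of 18 libraries was available, and the 12 of TLR4-K730R and TLR4-K810R, mock-treated or LPS-treated, were grouped by the sample labels. The authors deposited FPKM values, 1 row per transcript event, in 80071 to 90401 rows per library; events that were not expressed are not listed. The aligner and counting program are not given in the sources used here. The submitters' processing notes name the build hg18, a human build, but the coordinates match mouse GRCm38. Of 14139 Ensembl numbers, 14126 were found in GENCODE vM21. Rows whose event overlapped its gene on the same strand were used; the rest held 4.78% to 8.10% of first-exon and last-exon FPKM per library. The first-exon and last-exon sums differed by less than 1.1 times in 5553 genes, and values of other genes may be partial.

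The larger sum per gene was tested with limma 3.58.1 in R 4.3.3 on log2(FPKM + 1), with 4 groups and a variance trend, and p-values were adjusted over 9517 genes (Benjamini-Hochberg). Intervals are 95% and come from the moderated standard errors. Python 3.11.15 and pandas 2.3.3 were used. The test was tried on simulated data in 20 runs, where 1.1% of calls were false. Promoters and motifs come from a RefSeq table of 32851 promoters.

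The comparison, the 16 gene lists and the 14 marker lists were chosen with earlier results of these data known. Named genes are those called in the difference (up to 15 in each direction), the up to 10 of smallest p in each direction, Tlr4, Il6, Tnf, Il1b and Nos2, the 5 largest rises and falls shared by both mutants, and from each list the called members and the 4 with the largest difference. Not every gene under this rule is described, and further members such as Sqle, Insig1, Lcn2, Myd88 and Lyz2 were named after their values were seen. Single values of 2 members of the cholesterol list are not reported here. Same-numbered libraries of different groups had deviations that correlated at -0.159 to 0.0766 in 18 pairs, so the numbers do not pair the libraries.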

Additional observations from a re-analysis of the deposited data

Results flagged for a closer look

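The Hp response difference of 1.84 on the log2 scale was flagged because limma's test of the difference between the mutants' LPS responses passed its threshold (adjusted p = 0.00187). Hp rose in both mutants, by 3.15 in K810R and by 1.30 in K730R, with all 3 LPS libraries above all 3 mock libraries in each. It is 1 of 9517 genes tested.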

How the results depend on the processing

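The response difference called 1 gene, Hp, under every alternative of pseudocount, filter, scaling, variance trend, library weights, gene value and threshold that was run, and 0 to 3 genes when libraries were left out. Genes called in the LPS response numbered 1360 to 2829 in K810R and 1741 to 3407 in K730R over the left-out libraries, and 1598 and 1925 where only genes with like first-exon and last-exon sums were tested (fewer genes tested). Between the mutants without LPS, 4 genes were called, against 12 with no filter on low values, 8 with all 18 libraries in the fit, 2 among genes with like sums, 38 at an adjusted p below 0.05, and 1 to 9 with libraries left out. With LPS, 21 were called, against 8 with a pseudocount of 5, 0 with no filter, 6 with median-of-ratios scaling, 6 with all 18 libraries, 0 from first-exon sums alone, 200 at an adjusted p below 0.05, and 0 to 54 with libraries left out; the cause was not tested. The Il1b difference of -0.16 ran from -0.71 to 0.12 and the Nos2 difference of -1.04 from -1.74 to 0.12 over left-out libraries, and Nos2 was 0.37 with a pseudocount of 0.1. Hp lost its call without replicate number 1, 2 or 3 in all groups (adjusted p = 0.0817, 0.229 and 0.0456). With a replicate block in limma, 1 gene, Hp, was called in the response difference (adjusted p = 0.00764). That fit called 2399 genes in the K810R and 3034 in the K730R response, 3 between the mutants without LPS and 0 with LPS. However, no pairing of the libraries by number was seen. Depth is unknown and its limits cannot be given.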

Other observations

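Other gene lists had medians near that of all genes. Glycolysis and itaconate genes had 9 positive and 7 negative differences (median 0.06), with 5 of the 16 at an unadjusted p below 0.05, all positive, beside 6.56% of all genes in this direction, among them Pfkl, phosphofructokinase (0.81), and Slc16a3, a lactate exporter (0.77). DNA replication and cell cycle genes had 11 positive and 8 negative, from -1.56 for Mcm7 to 1.06 for Mcm4, 2 subunits of the same helicase. Their median of 0.08 was 0.35 without replicate 3 of K810R mock, and ran from -0.14 to 0.38 over left-out libraries. Mcm7 measured 8.66, 6.76 and 9.07 FPKM in K810R mock against 1.17, 2.7 and 0.944 in K730R mock. Class I presentation had 8 positive and 10 negative (median -0.03), class II 3 and 4 (-0.06), metallothioneins and zinc transporters 5 and 7 (-0.02), early response factors 2 and 6 (-0.15), alternative activation 8 and 4 (0.11) and neutrophil markers 3 and 3 (0.04). Without replicate 3 of K730R with LPS, the median became 0.22 for glycolysis, 0.04 for replication, 0.15 for class I, 0.05 for class II, -0.05 for metallothioneins, -0.26 for early response factors, 0.21 for alternative activation and -0.06 for neutrophil markers.

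Retnla, a marker of alternative activation, measured 21, 16.8 and 15.5 FPKM in K730R mock and 10.6, 13.6 and 30.2 with LPS, against 2.88, 1.28 and 3.42 in K810R mock and 3.18, 2.87 and 2.87 with LPS. The mutants did not overlap under either treatment (-2.46 and -2.14, adjusted p = 0.0194 and 0.017, limma, not called), and the response difference was 0.32 (95% interval -0.72 to 1.36), or 0.74 without replicate 3 of K730R with LPS (adjusted p = 0.636). Of 10 B cell markers 2 were tested, 1 positive and 1 negative. Igkc, an immunoglobulin light chain constant region and a B cell gene, had a response difference of 2.04 (adjusted p = 0.279), from 20.7, 40.5 and 16.9 FPKM in mock to 6.89, 4.86 and 4.59 with LPS in K730R, and from 16.5, 7.32 and 12.3 to 9.56, 13.4 and 13 in K810R. Cd79b, a chain of the B cell receptor, had a difference of -0.49 (95% interval -1.08 to 0.10). Of the T and NK cell markers none passed the filter on low values.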
